A study of Homo sapiens with 12 samples.

Results

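The genes described here are the protein-coding genes of chromosome 19 whose symbol is ZNF followed by digits. In the deposited FPKM table (sequenced fragments relative to gene length and library depth) 249 of 58676 genes met this rule, against 265 such genes on other chromosomes. The 12 RNA libraries came from A549, a widely used epithelial line that was established from a human lung carcinoma. The groups were a control line (labelled Control1) and 2 lines with a knockout of the transcription factor gene NFE2L1 (KO1 and KO2), each with DMSO vehicle or with bortezomib, a proteasome inhibitor, at 200 nM for 4 h. Each of the 6 groups had 2 libraries. The labels do not say whether a line was 1 clone or whether the 2 libraries came from separate cultures, so p-values measure the spread between these libraries, which may be technical.

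ZNF genes encode proteins with arrays of C2H2 zinc fingers, each finger a short fold held by a zinc ion that can read a few bases of DNA. Many of the chromosome 19 genes also encode a KRAB domain, which recruits the corepressor TRIM28 (KAP1) and through it the histone methyltransferase SETDB1 and heterochromatin proteins. The family grew by tandem duplication, stands in large clusters on this chromosome, and is best known for silencing transposable elements.

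Some of the results below turn on the promoters, which are taken from RefSeq (GRCh38.p14, 250 bases before to 50 after each start site). An entry with the same symbol was found for 215 of the 249 members. Where a symbol had more than 1 entry only the first was used, which left 27305 of 35116 promoters. Other entries of a gene were not searched. The first set is shown because it comes from neighbouring genes that carry the same 8 letters close to the start site. Capitals mark TGACGTCA, the palindromic cAMP response element (CRE), known as a site for CREB and ATF factors. Each stretch holds the 90 bases before the start site and the first 10 after it, 5′ to 3′ on the gene's own strand, which is the minus strand for all 4.
ZNF266 (chr19:9435564-9435663): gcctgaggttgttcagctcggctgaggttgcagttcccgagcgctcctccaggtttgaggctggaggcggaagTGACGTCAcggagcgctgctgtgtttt
ZNF426 (chr19:9538636-9538735): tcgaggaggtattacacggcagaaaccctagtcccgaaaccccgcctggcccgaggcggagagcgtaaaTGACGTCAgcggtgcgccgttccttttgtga
ZNF121 (chr19:9584495-9584594): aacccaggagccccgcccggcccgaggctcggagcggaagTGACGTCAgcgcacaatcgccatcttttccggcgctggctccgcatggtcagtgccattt
ZNF562 (chr19:9675091-9675190): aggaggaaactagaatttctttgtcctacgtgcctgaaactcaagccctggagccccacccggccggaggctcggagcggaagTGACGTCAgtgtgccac
ZNF266, ZNF121 and ZNF562 also share the 7 letters before the element. The whole run of 15 letters, gcggaagTGACGTCA, was found on either strand in the promoters of 4 members (ZNF266, ZNF121, ZNF561 and ZNF562) and in 10 of 27305 promoters in all (0.0366%). This run was chosen after the sequences were seen. The CRE alone was in 7 of the 215 member promoters (3.3%) and in 540 of the 27305 (2.0%), counted on both strands (it reads the same on each).

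A second set is shown because members differed in promoter CpG content along with their level. ZNF146 had the highest mean FPKM of all members, and ZNF626 had the lowest ratio of observed to expected CpG in the cluster between 19.7 and 24.1 Mb. Capitals mark each CG, and each stretch has 190 bases before the start site and 10 after it. ZNF146 lies on the plus strand and ZNF626 on the minus strand.
ZNF146 (chr19:36214916-36215115): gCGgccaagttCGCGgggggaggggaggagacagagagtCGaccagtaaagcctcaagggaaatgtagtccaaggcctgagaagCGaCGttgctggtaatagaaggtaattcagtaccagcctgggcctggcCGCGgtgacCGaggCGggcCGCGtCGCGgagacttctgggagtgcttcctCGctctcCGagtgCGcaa
ZNF626 (chr19:20661562-20661761): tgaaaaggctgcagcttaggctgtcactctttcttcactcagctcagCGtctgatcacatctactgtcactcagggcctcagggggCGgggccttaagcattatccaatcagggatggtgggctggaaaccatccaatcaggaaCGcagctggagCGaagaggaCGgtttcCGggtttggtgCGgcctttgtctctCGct
The ZNF146 stretch held 17 CG pairs and the ZNF626 stretch 8. Mean FPKM over the 12 libraries was 44.3 for ZNF146 and 0.00245 for ZNF626.

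Most members were weakly expressed. Their median mean FPKM was 0.737, compared with 2.11 for the 265 ZNF genes of other chromosomes and 1.14 for the 1215 other protein-coding genes of chromosome 19. Of the 249 members, 22 were at 0 in all 12 libraries and 111 (44.6%) had a mean FPKM of at least 1, a level that 184 (69.4%) of the other ZNF genes reached. The fits below used the 144 members (57.8%) with a mean FPKM of at least 0.5. The nearest member under this limit was ZNF738 (0.498) and the nearest above it was ZNF549 (0.513). The members together took 0.148% to 0.267% of a library's assigned reads.

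ZNF146, also known as OZF and made up almost only of zinc fingers, stood far above the other members. Its FPKM was 56.4 and 27.1 in the control line with vehicle (the unnumbered library and R2), 43.7 and 17.7 in KO1 (R1 and R2) and 67.8 and 35.5 in KO2. R2 was the lower library in each of these groups. ZNF787 (16.3), ZNF579 (13.6), ZNF581 (10.8) and ZNF574 (8.66) followed by mean FPKM, and then ZNF260 (8.25), ZNF526 (7.79), ZNF865 (7.54), ZNF317 (7.16) and ZNF507 (6.95). ZNF260 is known as a partner of GATA4 in heart cells. Of these 10 genes only ZNF317 had a KRAB sequence. Between libraries of 1 group the FPKM of ZNF787 differed by more than its distance to ZNF579, with 17.4 and 9.07 against 13 and 10.6 in the vehicle control, so these neighbours in the order did not differ beyond their spread.

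Level went with position on the chromosome. The members fell into 16 groups when a new group was begun at each gap of more than 1 Mb. In the group at 19.7 to 24.1 Mb, which holds ZNF91 and is next to the centromere, the median of mean FPKM was 0.00529 and 9 of 36 members passed the limit of 0.5. In that at 11.5 to 12.6 Mb it was 0.00349 and 7 of 27 passed. The large group at 55.5 to 58.5 Mb, near the end of the long arm, had a median of 1.68, with 50 of 59 passing. Those at 43.5 to 45.1 Mb (median 1.47, 19 of 24), 7.1 to 9.8 Mb (1.11, 12 of 17) and 36.2 to 37.8 Mb (1.04, 16 of 26) lay between these levels and that of the low groups, close to the upper end. The group at 51.6 to 53.6 Mb was mixed, with a median of 0.174, 16 of 39 passing and ZNF331 at 6.51. Within the low groups single members were expressed, such as ZNF714 (2.16) at 19.7 to 24.1 Mb and ZNF791 (2.97) at 11.5 to 12.6 Mb. The plot of levels by position group shows this spread within each group.

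**Figure D1:**
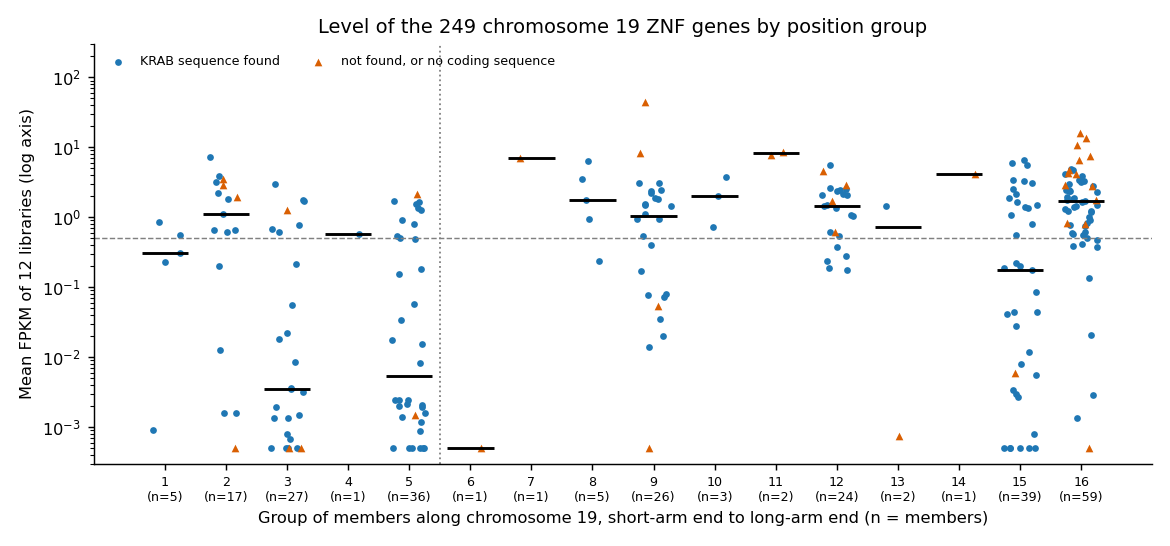
Mean FPKM over 12 libraries (log axis) of each of the 249 members, in 16 groups ordered along chromosome 19. Each point is a gene (circles with a KRAB sequence, triangles where none was found or no coding sequence was given), black bars are group medians, the dashed line is the limit of 0.5, the dotted line separates the short from the long arm, and values under 0.0005 are drawn at 0.0005. Groups 3 and 5 have medians of 0.00349 and 0.00529, and group 16 has 1.68.

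Protein and promoter features also went with the level. GENCODE 29 gave a coding sequence for 247 members, with a median of 588 residues and of 12 fingers per protein (range 0 to 36). A KRAB sequence was found in 211 of them, whose median mean FPKM was 0.608, against 2.87 in the 36 without it. The limit of 0.5 was passed by 116 (55.0%) and 28 (77.8%) of these. The KRAB call is by identity of at least 15 of 36 residues and was chosen after a stricter fixed pattern (151 found, medians 0.544 and 1.26) was seen to miss variants. By promoter, the observed to expected CpG ratio was under 0.6 in 45 members, with a median level of 0.0223. It was 0.8 or more in 92 members, with a median level of 1.28. The median ratio was 0.765 over the 215 members and 0.580 over all 27305 promoters, but 0.438 in the group at 19.7 to 24.1 Mb. There were exceptions, since ZNF574, with a mean FPKM of 8.66, had a ratio of 0.221. The whole group at 51.6 to 53.6 Mb had a median ratio of 0.847 but a median level of 0.174. A KRAB sequence was found in 34 of 36 members at 19.7 to 24.1 Mb and 24 of 27 at 11.5 to 12.6 Mb. It was found in 45 of 59 at 55.5 to 58.5 Mb, so KRAB and position were not separated. No test was made of these relations, which are across genes of shared ancestry.

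Members with textbook roles ranged over the whole scale. ZNF91, which silences SVA retrotransposons, had a mean FPKM of 0.0342 and at most 0.0688 in any library, with 6.67 reads on average. ZNF85 (0.0175) and ZNF382 (0.0140) were as low. ZNF274, which recruits SETDB1 to the 3′ ends of ZNF genes, had a mean FPKM of 4.11, and the imprinted gene ZNF331 had 6.51. ZNF296 (2.89), ZNF224 (2.46), known as a repressor of the aldolase A gene, ZNF350 (1.37), the BRCA1 partner ZBRK1, and ZNF675 (1.34), an inhibitor of TRAF6 signalling, lay between. ZNF331 was higher in R2 than in its partner library in every group, for example 5.83 and 9.14 in the vehicle control.

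Facts of the libraries that touch these results are as follows. Depth was 13211608 to 23819258 assigned reads, and 3 reads of a 1-kilobase gene correspond to an FPKM of 0.126 to 0.227. NFE2L1 was at 72.7 and 151 in the vehicle control, 8.45 and 14.8 in KO1 and 18.6 and 33.6 in KO2 (limma adjusted p 0.0556 for KO1 and 0.384 for KO2 in the main fit, 0.000218 and 0.00144 in the blocked fit, both described below). With bortezomib it was at 109 and 189 in the control line, 27 and 35.8 in KO1 and 36.7 and 50.8 in KO2. These are log2 fold changes of 0.45, 1.47 and 0.78, with adjusted p of 0.0682, 0.00108 and 0.0125 by limma with the block (main 0.840, 0.378 and 0.776). All 10 markers of A549 or lung carcinoma epithelium were at or above 3.65 on average. Of 10 markers of other cell types 8 were under 0.5, the exceptions being COL1A1 (8) and AGER (1.80). The libraries labelled R2 stood apart: mitochondrial genes took 12.3% to 19.3% of their reads against 5.4% to 6.8% in the others. In R2 the members were lower than in the partner library, with a median log2 difference of -0.46 in the vehicle control and -0.13 to -0.29 in the other 5 groups (over all genes tested, -0.39, and -0.07 to -0.29). Results are given from a limma fit on the 6 groups (main) and from a fit that also has the title suffix (none, R1 or R2) as a replicate block. Of the 249 members, 110 overlap another gene on the same strand and 133 on the opposite strand. Whether the counting used strand is not given in the sources used here, so reads of such pairs may have been shared. In RNA from a whole culture, fewer cells that express a gene and less of its RNA per cell cannot be told apart.

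The first comparison asked how the members responded to bortezomib. Across the 3 lines, 6 members rose and 3 fell in the main fit (limma, adjusted p under 0.05 on log2(FPKM + 0.1)). These are 4.17% and 2.08% of the members, where 4.72% and 6.4% of all 14365 genes and 13.7% and 4.39% of the 205 other ZNF genes were called. In either direction the members' 6.25% was below the 11.1% of all genes. In the fit with the replicate block 58 of 144 rose and 13 fell. These are 40.3% and 9.03% of the members, where 24.6% and 25.7% of all genes tested were called higher and lower, while 40% and 18% of the 205 other ZNF genes were. Some cell type markers also moved with bortezomib in the main fit: the collagen gene COL1A1 (2.10, limma adjusted p 0.00621), AGER (-1.12, 0.0485) and the epithelial marker EPCAM (1.17, 0.0360). The 10 markers of other cell types summed to an FPKM of 3.88 to 7.46 in the vehicle libraries and 7.03 to 24.9 with bortezomib. Without COL1A1 and AGER the other 8, among them PTPRC, CD3E and PECAM1, summed to 0.0697 to 0.311 and 0.148 to 0.343. With the block 1 of the 10 A549 markers rose and 4 fell. The part of these changes in the members' values was not tested. The blocked fit included each of the 9 calls of the main fit. Leaving out any 1 library lowered the 9 calls to between 3 and 7, and the 71 to between 50 and 61. The median log2 fold change was 0.20 for the members and 0.18 for the other ZNF genes. It was 0.08 for the other protein-coding genes of chromosome 19 and -0.02 for all genes. In all 6 pairs of libraries (3 lines, paired by suffix) 58 members were higher and 16 lower, or 40.3% and 11.1%, against 23.0% and 22.8% of all genes. The plot of medians by pair shows the members above 0 in each of the 6 pairs. In the R2 pairs of KO1 and KO2 the other protein-coding genes of chromosome 19 had higher medians (0.33 and 0.17) than the members (0.15 and 0.13). In the remaining pairs they were below the members.

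**Figure D2:**
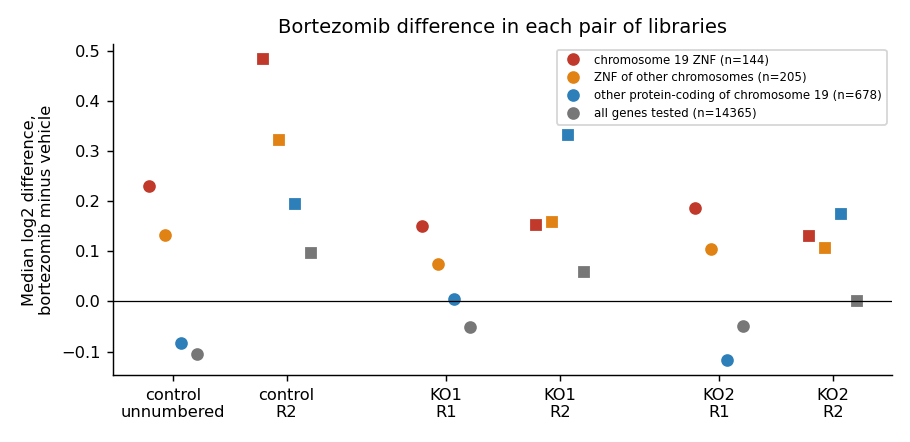
Median log2 difference, bortezomib minus vehicle, over the genes of 4 sets (colours) in each of the 6 pairs of libraries (circles for unnumbered or R1, squares for R2). The 144 members have medians of 0.13 to 0.48, and all genes tested have -0.10 to 0.10.

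Within single lines, the main fit called 0 of 144 members in each of the control line, KO1 and KO2. The background was 0.313%, 0.23% and 0.188% of all genes. An unadjusted limma p under 0.05 was reached by 18, 5 and 7 of 144 members and by 1788, 1385 and 1384 of 14365 genes. Voom on recovered reads without the block also called 0 in each line. With the replicate block 30 rose and 3 fell in the control line, against 13.8% and 14.3% of all genes called (20.8% and 2.08% of the members). In KO1 11 rose and 7 fell, where the background was 11.5% and 11.8%. In KO2 11 rose and 3 fell, where it was 10.2% and 11.8%. The members' 7.64% called higher in each knockout line was thus below the share of all genes, and only the control line's share was above it. Of the 205 other ZNF genes 27.3%, 20% and 18% were called higher in the control line, KO1 and KO2, above the members in each line. Called lower were 7.8%, 9.76% and 5.37% of these 205. The members had median log2 fold changes of 0.39 (control), 0.18 (KO1) and 0.17 (KO2). In the same order the medians were 0.25, 0.13 and 0.08 for the other ZNF genes. They were 0.08, 0.17 and 0.02 for the other protein-coding genes of chromosome 19, and -0.01, -0.01 and -0.03 for all genes. The members' median in the control line was 0.61 without its unnumbered vehicle library and 0.15 without its R2 vehicle library. That of KO1 was 0.01 without its R2 vehicle library and -0.00 without its R1 bortezomib library, and that of KO2 was 0.10 without its R1 bortezomib library. Called higher in all 3 lines, which share no library, were 8 members: ZNF317, ZNF416, ZNF473, ZNF581, ZNF761, ZNF765, ZNF766 and ZNF841. This is 5.56% of the 144, where 6.44% of all genes tested were called higher in all 3, so the members' share was near the background. None was called lower in all 3, against 7.27% of all genes. When 1 of its own 4 libraries was left out of the blocked fit, the number of calls was 8 to 15 in the control line (33 with all libraries), 4 to 10 in KO1 (18) and 3 to 5 in KO2 (14). KO1 also fell to 11 calls without the R1 vehicle library of KO2, and KO2 to 9 without either bortezomib library of KO1.

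**Figure D3:**
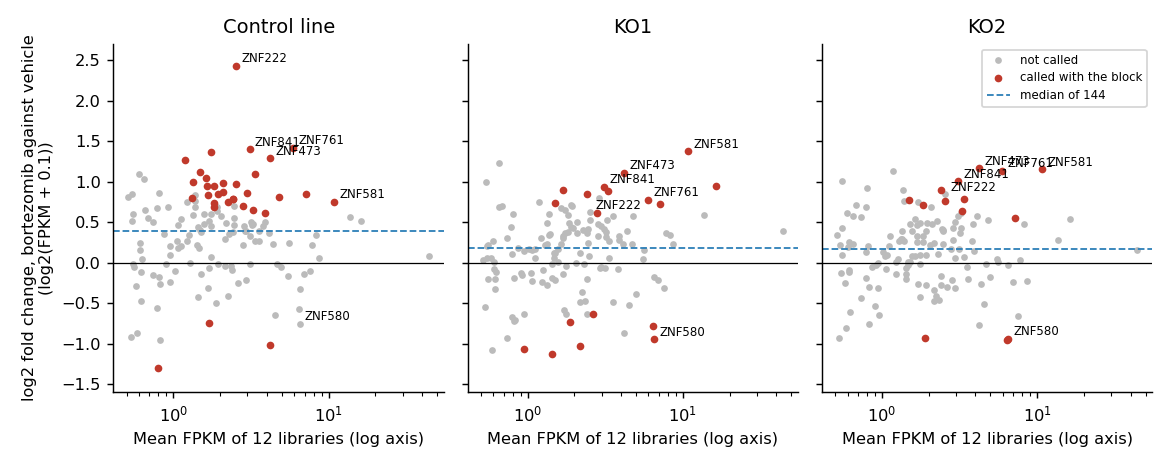
Log2 fold change of the 144 members with bortezomib against their mean FPKM (log axis), by line. Red points are members called by limma with the replicate block, grey points are not called, and the dashed line is the median of the 144, at 0.39, 0.18 and 0.17. ZNF473, ZNF761, ZNF841 and ZNF581 are red in all 3 lines, and ZNF222 in the control line alone.

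ZNF473 (ENSG00000142528, chr19:50025714-50053414), which encodes ZFP100, a part of the U7 machinery that trims histone mRNA ends, rose in each line. Its FPKM was 2.79 and 1.90 in the vehicle control and 7.23 and 4.60 with bortezomib. In KO1 it went from 2.92 and 1.99 to 6.44 and 4.39, and in KO2 from 3.30 and 2.27 to 6.72 and 5.82. In every line both bortezomib libraries were above both vehicle libraries. The log2 fold change over the lines was 1.19 (SE 0.22, limma adjusted p 0.0111) and 3.73e-05 was the adjusted p with the block. The gene overlaps VRK3 on the opposite strand.

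ZNF761 (ENSG00000160336, chr19:53431993-53458261) had the smallest adjusted p of the members in the main fit. It had an FPKM of 3.00 and 2.56 in the vehicle control and 7.56 and 7.63 with bortezomib. The values were 5 and 4.64 against 8.56 and 8.09 in KO1, and 3.70 and 3.76 against 8.79 and 7.83 in KO2. The groups did not overlap in any line, and the log2 fold change over the lines was 1.11 (SE 0.15, limma adjusted p 0.003, and 3.14e-05 with the block). Its neighbour ZNF765, which ends just before it and overlaps ZNF525 on its strand, rose by 0.87 on the log2 scale (SE 0.21, limma adjusted p 0.0305, and 0.000641 with the block). ZNF761 overlaps the pseudogene TPM3P9 on its strand. How reads in the shared span, or reads that match near-identical genes, were assigned is not given in the sources used here.

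ZNF841 and ZNF160 lie in the same group of genes at 51.6 to 53.6 Mb. ZNF841 (ENSG00000197608, chr19:52064466-52095765) had an FPKM of 0.783 and 0.886 in the vehicle control and 2.29 and 2.44 with bortezomib. It went from 1.95 and 3.27 to 4.34 and 5.60 in KO1 and from 1.67 and 3.58 to 3.99 and 6.31 in KO2, so the libraries did not overlap within any line. Its log2 fold change was 1.11 (SE 0.25, limma adjusted p 0.0217, and 0.000141 with the block), and that of ZNF160 was 0.75 (SE 0.21, adjusted p 0.0485, and 0.00114 with the block). ZNF841 shares its strand and part of its span with ZNF432.

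ZNF222 (ENSG00000159885, chr19:44025342-44033112) had the largest rise in the control line. Its FPKM there was 1.57 and 0.561 with vehicle and 5.47 and 5.65 with bortezomib. It was 1.44 and 1.43 against 2.53 and 2.01 in KO1, and 1.67 and 1.76 against 3.01 and 3.30 in KO2. All bortezomib libraries were above the vehicle libraries of their line, with the widest step in the control line. ZNF222 overlaps AC067968.1 on its strand. On the log2 scale it rose by 2.43 in control cells (SE 0.41, limma adjusted p 0.0505, and 0.00139 with the block) and by 1.30 over the lines (adjusted p 0.0102, and 0.000585 with the block). The fold changes of 0.62 in KO1 and 0.84 in KO2 did not pass (adjusted p 0.177 and 0.0854 with the block). The test of the difference, the mean of the knockout lines minus the control line, gave -1.70 (SE 0.51, limma adjusted p 1, and 0.231 with the block), so it did not pass. Its promoter holds TGACNNNGC, the core of the antioxidant response element that NFE2L1 and related factors are known to bind, shown here in capitals with 90 bases before the start and 10 after it on the plus strand.
ZNF222 (chr19:44025289-44025388): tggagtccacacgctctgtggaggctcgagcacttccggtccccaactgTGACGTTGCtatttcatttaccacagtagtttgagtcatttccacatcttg
The element was in 31 of 215 member promoters (14.4%) and in 13.6% of all promoters, on either strand. It was in 9 of the 55 promoters of members called higher over the lines with the block (16.4%), in 0 of the 12 of members called lower and in 9 of the 66 of tested members not called (13.6%), so its share among the risers was near that of all promoters.

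ZNF581 and ZNF580 overlap each other, and CCDC106, on the plus strand (chr19:55635459-55645622 and chr19:55635016-55643469) and moved in opposite directions. ZNF581 was at 10.4 and 5.94 in the vehicle control and 17.8 and 9.88 with bortezomib, at 7.30 and 3.63 against 19.3 and 9.43 in KO1, and at 9.44 and 5.02 against 18.5 and 12.9 in KO2. Within the control line these ranges overlapped, while within each suffix pair bortezomib was higher. Its log2 fold change was 1.09 (SE 0.32, limma adjusted p 0.0585, and 6.16e-05 with the block). ZNF580 was at 10.4 and 6.46 against 5.20 and 4.46 in the control line, 8.72 and 6.10 against 3.43 and 4.07 in KO1, and 10.1 and 8.91 against 3.74 and 6.39 in KO2. It fell by 0.88 on the log2 scale (SE 0.22, limma adjusted p 0.0326, and 0.00262 with the block), with no overlap in any line. How reads in the shared span were assigned is not given in the sources used here, so both values are uncertain.

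ZNF302 and ZNF324B also fell in the main fit. ZNF302 (ENSG00000089335, chr19:34677639-34686397) was at 9.64 and 6.88 against 4.77 and 6.23 in the control line, 4.58 and 6.16 against 2.45 and 3.77 in KO1, and 9.03 and 12.6 against 4.60 and 6.42 in KO2. Each suffix pair was lower with bortezomib, and the groups did not overlap within a line. The log2 fold change was -0.77 (SE 0.22, limma adjusted p 0.0491, and 0.000994 with the block). ZNF324B had -0.72 (SE 0.19, adjusted p 0.0422, and 0.00138 with the block), with 2.45 and 2.05 against 1.72 and 1.41 in the control line. No gene in the table overlaps either of them. With the block, ZNF132 (-0.92), ZNF524 (-0.88), ZNF497 (-0.81) and ZNF43 (-0.80) also fell over the lines and were lower in all 6 pairs, with limma adjusted p of 0.0179, 0.0028, 0.0140 and 0.0235. ZNF132, ZNF497 and ZNF43 had a mean FPKM of 0.585, 0.823 and 0.531, close to the limit of 0.5.

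**Figure D4:**
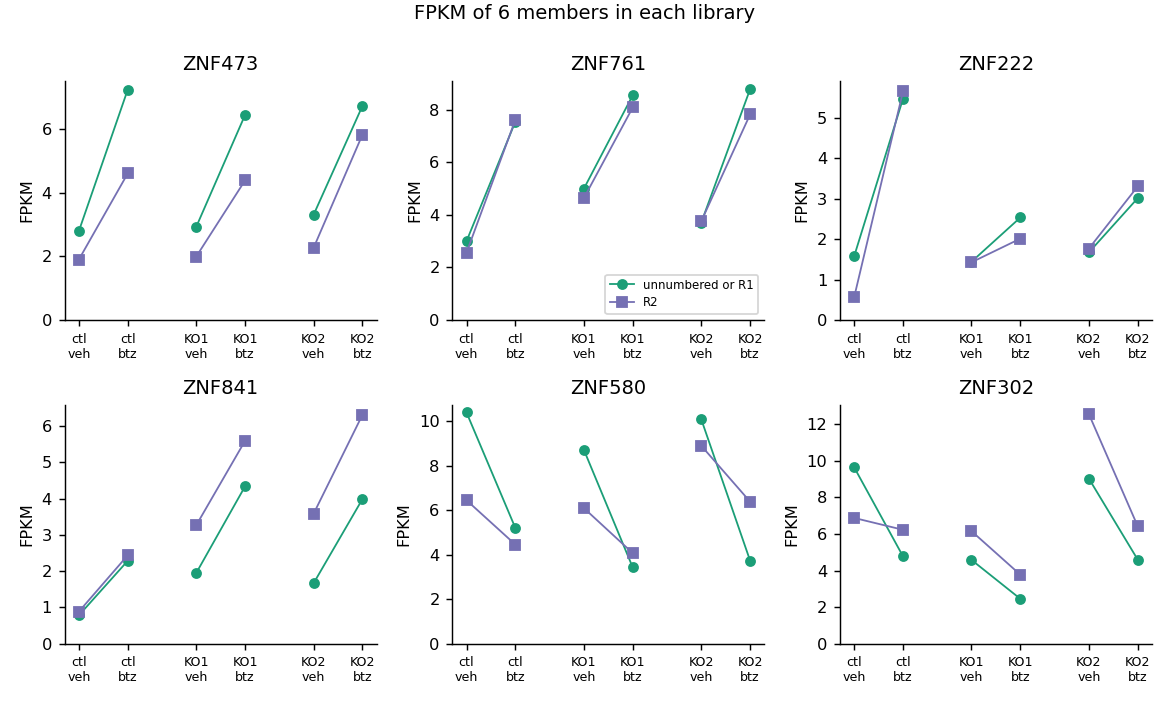
FPKM of 6 members in each of the 12 libraries, with a line joining the vehicle (veh) and bortezomib (btz) library of each suffix pair in the control line (ctl), KO1 and KO2. ZNF473, ZNF761, ZNF222 and ZNF841 are higher with bortezomib in all 6 pairs, and ZNF580 and ZNF302 lower in all 6.

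Further members were called within a line with the block. ZNF329 rose by 1.36 on the log2 scale in the control line (limma adjusted p 0.00225), from 1.44 and 0.757 to 3.93 and 2.07, and ZNF416 by 0.78 (control line), 0.84 (KO1) and 0.89 (KO2), with adjusted p of 0.0278, 0.0254 and 0.0222. In KO1 ZNF787 rose by 0.95 (adjusted p 0.00642) and ZNF627 by 0.89 (adjusted p 0.0379). The fallers of the control line were ZNF837 (-1.31), ZNF524 (-1.02) and ZNF576 (-0.75), with limma adjusted p of 0.0392, 0.0317 and 0.0320. In KO1 ZNF112 (-1.14), ZNF573 (-1.07) and ZNF234 (-1.02) fell, with adjusted p of 0.0151, 0.0249 and 0.0159. ZNF234 had a log2 fold change of 0.29 in the control line, which did not pass. Among the textbook members, ZNF350 (0.77), ZNF296 (0.49), ZNF224 (0.45) and ZNF274 (0.39) rose over the lines in the blocked fit, with limma adjusted p of 0.00439, 0.0330, 0.0434 and 0.0397. ZNF331 (-0.18) and ZNF675 (0.20) did not pass.

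The 5 members between ZNF266 and ZNF562 that were expressed well enough for the fits, within 0.26 Mb of the short arm, all hold the CRE (printed above for 4 of them) and were all called higher over the lines with the block. They are ZNF266, ZNF426, ZNF121, ZNF561 and ZNF562, with log2 fold changes of 0.44, 0.94, 0.40, 0.41 and 0.56 and limma adjusted p of 0.0213, 0.0176, 0.0164, 0.0131 and 0.00335. None passed the main fit, where the adjusted p ranged from 0.129 to 0.377. The element begins 17, 21, 50, 23 and 7 bases before the RefSeq start site in this order, and for ZNF561 the deposited gene start lies 167 bases from that site. ZNF560, the remaining member of this stretch, had a mean FPKM of 0.00157. ZNF562, for example, was at 1.76 and 1.21 in the vehicle control and 2.98 and 2.14 with bortezomib, at 2.43 and 1.87 against 3.6 and 2.26 in KO1, and at 1.88 and 1.71 against 3.02 and 2.23 in KO2. Its groups overlapped only in KO1, and each pair was higher with bortezomib. In the whole group at 7.1 to 9.8 Mb, 7 of 12 tested members were called higher with the block, where the share was 40.3% of all members and 24.6% of all genes tested. Of these 7, ZNF317 (0.71, limma adjusted p 0.00039) and ZNF558 (0.49, adjusted p 0.0126) have promoters that do not hold the element in the entry used. ZNF543 on the long arm, whose CRE lies just after the start site, was also called (0.62, limma adjusted p 0.00463), and ZNF547 was too low to test. In all, 6 of the 55 promoters of members called higher, 0 of the 12 of members called lower and 0 of the 66 of tested members not called held the element. All of these 6 except ZNF543 are the neighbours at this locus, of which 4 share the run of 15 letters. They are therefore not independent cases, and apart from this locus the count rests on ZNF543 alone. These neighbours were picked out after their values were seen. Besides the CRE and the antioxidant response element, 3 motifs were searched: TGATGCAA, a C/EBP-ATF site, in 1 of 215 (0.5%, and 0.9% of all promoters), and the heat shock element in 1 of 215 (0.5%, and 0.5%). The third, CCAAT, was in 53.5% of the member promoters and 35.7% of all, and in 23 of the 55 promoters of members called higher, 5 of the 12 called lower and 34 of the 66 not called. All motifs were counted on both strands. No binding was measured here.

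By position, most rises were in the large groups, which also held most of the tested members. With the block, 40.3% of all 144 members rose over the lines and 9.03% fell, against 24.6% and 25.7% of all genes tested. In this fit 22 of 50 tested members at 55.5 to 58.5 Mb rose and 5 fell, close to the shares of all members. At 51.6 to 53.6 Mb 11 of 16 rose and 0 fell, with a median log2 fold change of 0.60. At 7.1 to 9.8 Mb it was 7 of 12 and 0 (median 0.43), at 43.5 to 45.1 Mb 7 of 19 and 4 (0.12), and at 36.2 to 37.8 Mb 5 of 16 and 2 (0.18). At 11.5 to 12.6 Mb 4 of 7 rose and 0 fell (0.45), and in the group around ZNF91 1 of 9 rose and 1 fell. In the group of ZNF302 at 34.7 to 35 Mb the 4 tested members had a median of -0.29 with 0 of 4 above 0, and 1 of them fell. No member was called higher or lower in 6 small groups, with 1 to 3 tested members each, and ZNF473 stood alone at 50 Mb. By protein, 49 of 116 tested members with a KRAB sequence rose and 8 fell (median 0.27), against 9 of 28 and 5 without it (median 0.15). By the strict pattern it was 39 of 78 and 2, against 19 of 66 and 11. The 49 of 116 is close to the 40.3% of all members called higher, and the 9 of 28 lies below that and above the 24.6% of all genes. By the strict pattern, 39 of 78 lies above the members' share and 19 of 66 below it. Differences between these classes were not tested.

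The second comparison was between the knockout lines and the control line in vehicle. The main fit called 0 members in KO1 and 0 in KO2, where the background was 0.223% and 0.0835%. An unadjusted limma p under 0.05 was reached by 6 and 3 of 144 members and by 723 and 561 of 14365 genes. Voom without the block called 0 members in each. With the block 2 members rose in KO1 and 1 in KO2, and none fell (background 4.65% and 3.47%). ZNF841 was higher in both lines, with FPKM as given above of 1.67 to 3.58 in the 4 knockout libraries and at most 0.886 in the control. Its log2 fold change was 1.49 (SE 0.43) in KO1 and 1.45 (SE 0.43) in KO2, with limma adjusted p of 0.402 and 0.539. With the block these were 1.78 and 1.74, with adjusted p of 0.0074 and 0.0078. ZNF761 was higher in KO1 with the block (0.78, adjusted p 0.0383), and had 0.42 in KO2 (adjusted p 0.227). That block ties the knockout lines to the control line through the R2 libraries, since R1 occurs only in knockout groups. The comparisons of KO1 and KO2 with the control line share its 2 libraries.

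As a group the members were slightly higher in KO2, with a median log2 fold change of 0.28 and 120 of 144 (83.3%) above 0. The other ZNF genes were near this, with 0.22 and 80% above 0. The other protein-coding genes of chromosome 19 had 0.12 and 65.6%, and all genes 0.08 and 59.2%. By pair the members' median was 0.08 for R1 against the unnumbered control library and 0.47 for R2 against R2. In the latter pair the vehicle R2 library of the control line was the lowest of the 12 in summed member FPKM (291, against 301 to 538). Without that R2 control library the KO2 median was 0.09, and without the unnumbered control library 0.51. In KO1 the median was -0.01, with -0.16 and 0.15 in the same pairs. The KO1 median lay at -0.08 to 0.21 over the other settings that kept all libraries, so its sign depended on the setting.

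Short-arm and long-arm members differed in KO1. The longest stretch of the chromosome without a protein-coding gene (24129962 to 29205320, 5.08 Mb), which includes the centromere, was used to split the members into 31 tested on the short and 113 on the long arm. This split was chosen after the values were seen. Against KO2, long-arm members in KO1 had a median log2 difference of -0.23 and -0.44 with vehicle (R1 and R2 pair) and -0.28 and -0.45 with bortezomib. Short-arm members had 0.10, 0.01, 0.16 and 0.09. Long-arm members were lower in all 4 pairs in 70 of 113 cases (61.9%), against 1 of 31 (3.2%) on the short arm and 21.5% of all protein-coding genes.

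The same held for genes outside the family. The 342 other long-arm genes had medians of -0.45, -0.57, -0.32 and -0.47 in KO1 against KO2, and 73.1% were lower in all 4 pairs. The 336 other short-arm genes had -0.03, -0.22, 0.11 and 0.03, with 16.4%. Against the control line (R1 set against its unnumbered library), long-arm members in KO1 had -0.18, 0.05, -0.29 and -0.28, and the other long-arm genes -0.46, -0.46, -0.32 and -0.32. KO2 against the control line had no such step, with 0.04, 0.48, 0.04 and 0.15 for long-arm and 0.18, 0.43, 0.10 and 0.18 for short-arm members. ZNF genes of other chromosomes were between -0.10 and 0.06 in KO1 against KO2. Whole chromosomes other than 19 also had shifted medians: in KO1 against the control line, over the 4 pairs, chromosome 18 was at 0.51 to 0.73, chromosome 15 at -0.33 to -0.26, chromosome 12 at 0.39 to 0.50 and chromosome 2 at -0.49 to -0.33. In KO2 chromosomes 12 (0.37 to 0.54) and 2 (-0.33 to -0.21) were shifted in the same direction. DNA copy number was not measured, and its part in these shifts was not tested.

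**Figure D5:**
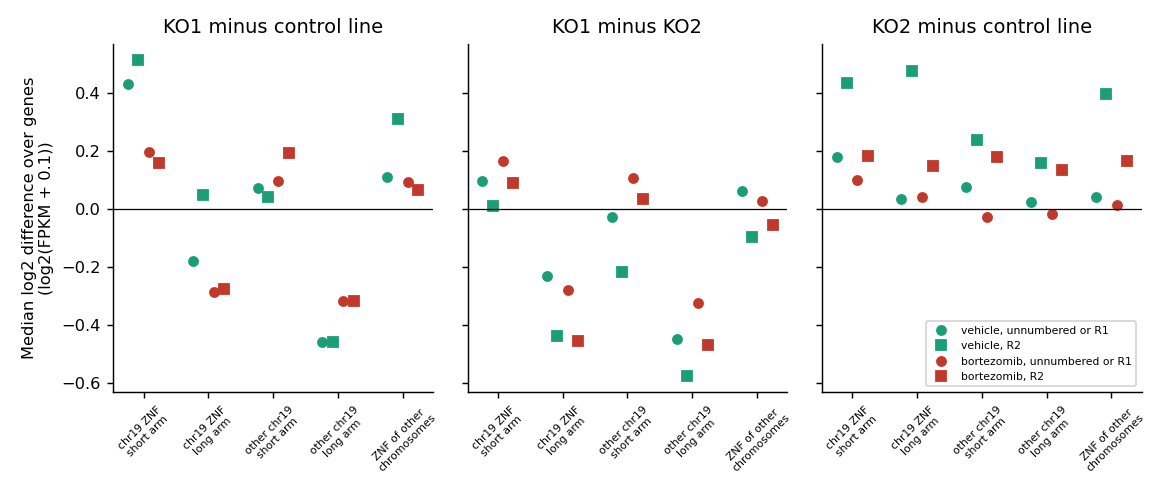
Median log2 difference between lines over members and other protein-coding genes of each arm of chromosome 19 and over ZNF genes of other chromosomes, in each of 4 library pairs (green for vehicle, red for bortezomib, circles for unnumbered or R1, squares for R2). Long-arm members in KO1 minus KO2 lie between -0.45 and -0.23, and short-arm members between 0.01 and 0.16.

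Single members were also compared between the knockout lines. Between KO1 and KO2 in vehicle the main fit called 0 members (background 0.0348%, 1 member at an unadjusted p under 0.05, and 0 by voom without the block). With the block 2 were lower in KO1 and none was higher (background 2.19%). ZNF146 was at 43.7 and 17.7 in KO1 and 67.8 and 35.5 in KO2, a log2 difference of -0.82 (SE 0.69, limma adjusted p 1, and 0.0304 with the block). ZNF574 was at 8.88 and 3.97 against 14.3 and 7.70, with -0.81 (adjusted p 1, and 0.0444 with the block). KO1 was lower within each suffix, and the ranges of the lines overlapped for both genes. Both lie on the long arm, and ZNF565 and GRIK5 overlap them on the opposite strand.

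The response to bortezomib was compared between the knockout lines and the control line by the interaction. The main and the blocked fit each called 0 of 144 members, and 0% of all genes in either. At an unadjusted limma p under 0.05 there were 3 of 144 members and 157 of 14365 genes without the block. With it there were 9 members and 1449 genes, and voom with the block called 0 members. The members' median interaction was -0.22, against -0.13 for other ZNF genes and 0.00 for all genes. It was -0.07 from the unnumbered and R1 libraries and -0.36 from the R2 libraries. Without the R2 vehicle library of the control line it was 0.01, and without the unnumbered one -0.45.

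The machinery that KRAB proteins recruit was examined together with related genes of DNA methylation and of the HUSH silencing complex. This list of 17 genes was chosen for their roles, and all of them passed the limit of 0.5. In the blocked fit 4 rose and 8 fell with bortezomib over the lines (23.5% and 47.1%, against 24.6% and 25.7% of all genes), so the share that rose was near the background. Only UHRF1, a cofactor of maintenance DNA methylation, was called in the main fit (-1.93, limma adjusted p 0.0025, and 1.91e-05 with the block). Its FPKM was 28.6 and 15.9 in the vehicle control and 6 and 4.90 with bortezomib. With the block CBX5 (-1.03) and CBX3 (-0.73), which encode heterochromatin proteins, and the DNA methyltransferase gene DNMT1 (-0.75) fell, with adjusted p of 0.000379, 0.00194 and 0.000417. PPHLN1 (0.50) and MPHOSPH8 (0.43), of the HUSH silencing complex, rose (adjusted p 0.0049 and 0.0118), while FAM208A (TASOR), of the same complex, had -0.23 (0.0911). TRIM28, itself on chromosome 19, had -0.11 (adjusted p 0.590 with the block), and SETDB1 -0.22 (0.0652). None of the 17 was called in KO1 or KO2 against the control line in either fit.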

How the data were processed

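RNA of 12 A549 libraries was measured (6 groups of 2, taken from the labels). The authors deposited FPKM for 58676 genes in 1 table. The submitters' processing notes name CASAVA, STAR 2.5, HTSeq 0.6.1, DESeq2 and hg19, with no roles. The table's positions are instead those of GENCODE 29 (GRCh38) for 95.2% of genes and 233 of 249 members, and are printed as in the table. Gene length and FPKM gave back whole reads (within 0.05 reads) for 100% of values, or 13211608 to 23819258 reads per library.

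The main fit was limma 3.58.1 (R 4.3.3, trend) on log2(FPKM + 0.1) for the 14365 genes whose mean FPKM reached 0.5, with Benjamini-Hochberg adjustment over all of them. Fold changes on this scale understate those of low genes. No replicate block was used. The block by title suffix (none, R1, R2) was fitted as an alternative. The difference R2 minus partner correlated between KO groups across genes at r 0.59 to 0.69. Over all groups, those of the control line included, the range was 0.47 to 0.69, with 0.54 between the 2 control groups and the lowest value between control vehicle and KO2 bortezomib. The suffix was taken to pair libraries, and blocked values are given beside the main ones.

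On simulated data of 14272 genes with 200 changed 2-fold, the fit without the block recovered 0 of 200 over the 3 lines, and the blocked fit 188 (94%) with 8 other calls. In the control line alone both recovered 0. The simulated libraries had the same difference between R2 and partner in all 6 groups, which the block removes fully. In the measured data this difference was only partly shared between groups (r 0.47 to 0.69), and the fit without the block called 1597 genes over the lines. The simulation therefore cannot show how reliable the blocked counts are here.

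Alternatives were another pseudocount, other filters, quantile normalization, voom on recovered reads, another coding of the block, members without read-through genes and each library left out. Quantile normalization with the block, removal of mitochondrial genes with the block and leaving out libraries with the block were added after seeing the data. The members and lists were chosen with earlier results of these data known. Named genes are the 10 highest members, members called in the main fit, up to 5 rises and 5 falls per comparison in the blocked fit that moved alike in the suffix pairs, members with textbook roles, and the list of 17. The CRE genes, ZNF714, ZNF791, ZNF626, the genes that overlap members and members named at the limit were chosen after their values were seen. The KRAB call by identity and the split by arm were also added after seeing the data. Fingers and KRAB were counted in GENCODE 29 coding sequences. Python 3.11.15, pandas 2.3.3 and numpy 2.4.6 were used.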

Additional observations from a re-analysis of the deposited data

Results flagged for a closer look

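In 2 named members the bortezomib difference had opposite signs in the library pairs of different lines, and the difference between lines was not tested for these pairs of lines. ZNF675, which encodes an inhibitor of TRAF6 signalling, was higher with bortezomib in both pairs of the control line (0.33 and 0.86 on the log2 scale) and lower in both of KO1 (-0.20 and -0.36), an average gap of 0.87. It was higher in both pairs of KO2 (0.32 and 0.26), so that KO1 lay below KO2 by an average of -0.57. ZNF574 was higher in both control pairs (0.03 and 0.09) and lower in both KO2 pairs (-0.25 and -0.19), a gap of 0.28. No call was made for either gene with bortezomib in any line.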

How the results depend on the processing

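The replicate block decided most counts. Beside the 9 members called over the 3 lines, it gave 71, and 70 when unnumbered and R1 libraries shared a block level, 84 with voom, 61 with a pseudocount and filter of 1, 75 with quantile normalization and 72 without mitochondrial genes. In the same order the blocked counts were 33, 33, 47, 32, 39 and 35 in the control line, 18, 18, 25, 16, 22 and 18 in KO1, 14, 14, 30, 16, 17 and 14 in KO2, 2, 4, 6, 2, 3 and 3 for KO1 against the control line, 1, 2, 11, 1, 1 and 1 for KO2 against it, and 2, 2, 9, 3, 3 and 1 for KO1 against KO2, where the main fit called 0 each. Without the block, no filter gave 5 over the lines, and in the control line a pseudocount of 1, that with a filter of 1, and no filter gave 1 each and quantile normalization 2. The cause of the moved counts was not tested. Leaving out 1 library gave 3 to 7 calls over the lines and 0 to 1 in the control line, and with the block 50 to 61 over the lines (71 with all libraries), 8 to 36 in the control line, 4 to 20 in KO1 and 3 to 15 in KO2. An arm left with 1 library is assumed to vary like the other groups. Median log2 fold changes of the members over leave-one-out fits were 0.15 to 0.30 over the lines, 0.15 to 0.61 in the control line, -0.00 to 0.27 in KO1, 0.10 to 0.22 in KO2, -0.22 to 0.26 and 0.09 to 0.51 for KO1 and KO2 against the control line, -0.44 to -0.18 for KO1 against KO2 and -0.45 to 0.0091 for the interaction. Without mitochondrial genes and with the block, the KO1 median against the control line was 0.21. ZNF331 over the lines (-0.18) ranged from -0.433 to 0.0778 when 1 library was left out, and turned to 0.0778 without the unnumbered bortezomib library of the control line and to 0.0048 without the R2 vehicle library of KO1. Of 1356 values of named genes under alternatives, 1018 kept direction and side of the threshold, 263 newly passed it, 73 lost it and 2 turned. Depth limits members under an FPKM of about 0.2, where 3 reads or fewer are counted per kilobase.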
